A study of Mus musculus with 4 samples.

Results

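The genes described here are the 3 members of the GADD45 family (Gadd45a, Gadd45b and Gadd45g), the stress cytokine gene Gdf15, the p53 gene Trp53 and 4 textbook targets of p53 (Mdm2, Ccng1, Zmat3 and Phlda3). They were taken by gene symbol, 9 genes of the 55487 in the table, and all 9 passed the filter on low counts. They were chosen by symbol, and selected on measured values in the sense that the CPM of the 4 libraries and results of the same comparison were already known, so their differences between groups are a description and their p-values are no independent support. RNA was sequenced from tumours of AXT osteosarcoma cells embedded in matrigel and taken from mice 1 day after inoculation. AXT is a mouse line made by overexpressing c-MYC in bone marrow stromal cells of Ink4a/Arf-deficient animals, a background that the knockout and mock cells share. There were 3 libraries of HIF-1alpha KO cells and 1 library of Mock AXT cells, labelled WT, and all hosts were C57BL/6scid mice, which lack mature B and T cells. The knockout lines carry the names HIF-1alphaKO AXT1-1, AXT1-2 and AXT2, while the table names its knockout columns c11, c15 and c22, and the sources used here do not say which column is which line. The labels do not say that each tumour came from its own mouse, so p-values measure only a spread between libraries. With 1 mock library, that spread comes from the 3 knockout libraries alone, and mock was assumed to vary like them. Differences between knockout lines and between tumours cannot be told apart in that spread.

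GADD45 proteins are small acidic stress proteins that are induced by growth arrest and DNA damage. They bind the kinase MAP3K4, which activates p38 and JNK, and they bind PCNA, p21 and the CDK1-cyclin B complex, which ties them to the G2 arrest. After DNA damage p53 is stabilised and switches on its targets, among them Mdm2, whose product marks p53 for degradation. Gadd45a and Gdf15 are known p53 targets too. Both have a second known route of induction, through ATF4 and CHOP in the integrated stress response. That pathway follows phosphorylation of eIF2alpha.

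Libraries KO c11, c15 and c22 held 12910058, 13193264 and 13081007 counts, against 12383719 in mock, which had no replicate. Levels are CPM, the counts scaled to library sizes adjusted by TMM, with the SD of the knockout libraries. Fold changes are knockout over mock, on a log2 scale, with the SE from the model. Hif1a RNA was at 103, 98.9 and 22.7 CPM in KO c11, c15 and c22, against 107 CPM in mock, which is close to the values of c11 and c15 and above that of c22. A count over the whole gene does not show a small deletion, so it does not check the label of c11 and c15. All 8 osteoblast markers were detected. They summed to 3394 to 8782 CPM in the knockout libraries against 4030 CPM in mock, with 1 of 8 above and 4 of 8 below mock in every knockout library. For this and the marker counts below, the share over all genes tested was 21.4% above and 22.2% below mock in every knockout library. The collagen gene Col1a1, the 1 above, was at 1888, 1095 and 4774 CPM in KO c11, c15 and c22, against 861 CPM in mock. The osteoblast transcription factor gene Runx2, 1 of the 4 below, was at 131, 139 and 118 CPM in KO c11, c15 and c22, against 244 CPM in mock. The osteocalcin gene Bglap was at 0 to 1.09 CPM in the knockout libraries and 1.45 CPM in mock. Most host tissue markers were lower in the knockout libraries. Summed macrophage markers were at 224 to 417 CPM against 734 CPM in mock, with 7 of 8 below mock in every knockout library. Erythroid markers were at 1.61 to 41.7 CPM against 116 CPM, and skeletal muscle markers at 1.44 to 24.1 CPM against 128 CPM, with 8 of 8 muscle markers below mock in every knockout library. Erythroid markers were below mock in every knockout library for 5 of 5 tested, and host fibroblast markers summed to 31.8 to 120 CPM against 151 CPM, with 4 of 7 below. Neutrophil markers summed to 4.36 to 16.6 CPM against 10.2 CPM in mock, with Ly6g at 0 in every library. The part of host cells in the differences below was not tested, and in bulk tumours fewer cells of a type and less RNA per cell cannot be told apart.

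Gadd45a showed the widest difference of the 9 genes. It encodes the family member that is best known as a p53 target. Gadd45a was at 61.4, 30.2 and 47.1 CPM in KO c11, c15 and c22, against 1.77 CPM in mock. The lowest knockout library was far above mock, and the 22 reads in mock allow 1.11 to 2.69 CPM (exact 95% Poisson interval, counting error only). The fitted log2 fold change was 4.69 (SE 0.71), a 25.9-fold difference, with 3 of 3 knockout libraries higher. The edgeR adjusted p over all genes was 0.255, and DESeq2 gave an adjusted p of 2.03e-10. The ratio of the pooled knockout level to mock was 26.0, and its counting interval, 17.1 to 41.6, leaves out the spread between lines and tumours.

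Gadd45a (chromosome 6, 67035096 to 67037457, GRCm38, minus strand) has a partner on the other strand. The noncoding gene E230016M11Rik (67036599 to 67080654, plus strand) starts inside it, and the annotated exons of the pair share 337 bases. E230016M11Rik was at 24.01, 11.7 and 16.5 CPM in KO c11, c15 and c22, against 1.13 CPM in mock, with a fitted log2 fold change of 3.93 (SE 0.80, edgeR adjusted p = 0.404, DESeq2 adjusted p = 8.1e-05). It was high and low in the same libraries as Gadd45a. The libraries were directional, but the sources used here give no strand setting for the counting, so reads of these genes may not have been kept apart. None of the other 8 genes overlapped an annotated gene. In GRCm38 they lie at chr10:80930073-80932204 (Gadd45b), chr13:51846678-51848468 (Gadd45g), chr8:70629393-70632456 (Gdf15), chr11:69580359-69591873 (Trp53), chr10:117688875-117710758 (Mdm2), chr11:40748552-40755311 (Ccng1), chr3:32334792-32366014 (Zmat3) and chr1:135766119-135769136 (Phlda3).

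Gadd45b and Gadd45g are the other paralogs, known as inflammatory and developmental stress genes. Gadd45b was at 14.1, 15.04 and 22.2 CPM in KO c11, c15 and c22, against 17.6 CPM in mock. Mock lay inside the knockout range, with a log2 fold change of -0.04 (SE 0.45). It turned positive without c11 (0.09) or c15 (0.04). Gadd45g was at 36.9, 11.7 and 24.5 CPM, against 11.6 CPM in mock. It was high in c11 and c22 and at the mock level in c15, a 3.16-fold spread among knockout libraries. Its fitted log2 fold change was 1.07 (SE 0.71), and the edgeR adjusted p was 1.00 for both paralogs.

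**Figure D1:**
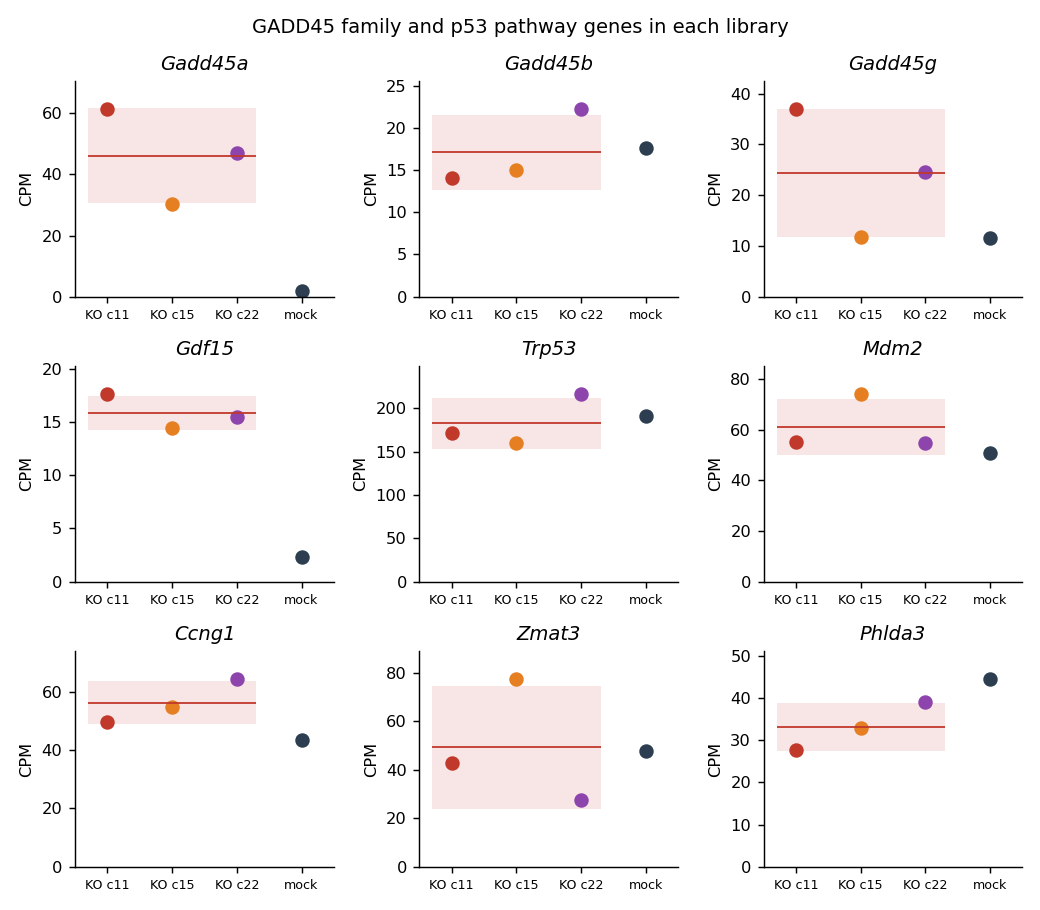
Level of each of the 9 genes in CPM (y axis, from 0, own scale per gene) in the knockout libraries c11, c15 and c22 and in mock. Points are single libraries, the line and band are the mean ± SD of the 3 knockout libraries. Mock lies far below the knockout range for Gadd45a and Gdf15, at the lowest knockout value for Gadd45g, inside it for Gadd45b, Trp53 and Zmat3, slightly below it for Mdm2 and Ccng1, and above it for Phlda3.

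Per length of transcript the make-up of the family differed between the groups. In TPM, which corrects counts for transcript length and depth (on exon lengths of GENCODE M21), Gadd45a made up 46.3%, 46.8% and 43.3% of the family in c11, c15 and c22, against 4.58% in mock. Gadd45b made up 11.8%, 25.9% and 22.7%, against 50.4% in mock. The share of Gadd45g was 41.9%, 27.3% and 34.0%, against 45.1% in mock. The family sum was 215, 107 and 164 TPM in c11, c15 and c22, a mean of 162 ± 53.9 TPM (SD, n = 3), against 61.4 TPM in mock. The Gadd45a share hardly varied among the knockout libraries, although the family sum was lower in c15 than in c11.

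**Figure D2:**
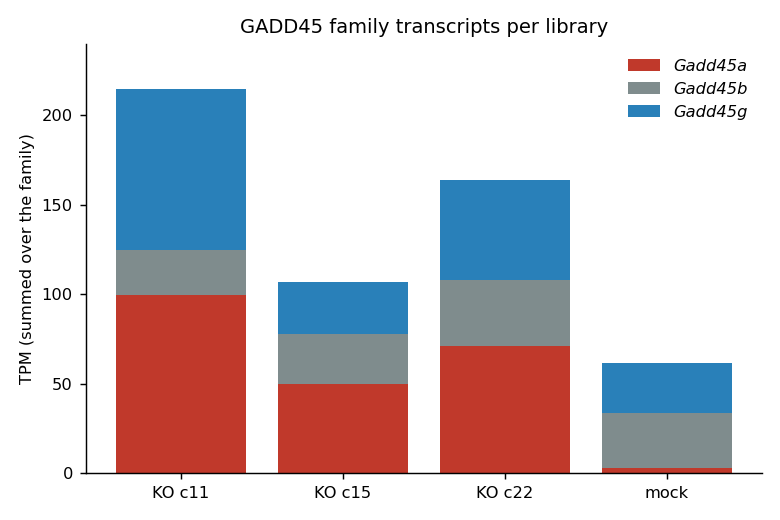
TPM of Gadd45a, Gadd45b and Gadd45g (stacked bars, y axis from 0) in the knockout libraries c11, c15 and c22 and in mock, 1 bar per library. Gadd45a fills 43.3% to 46.8% of the knockout bars and 4.58% of the mock bar.

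The promoters of the family and that of Gdf15 are RefSeq windows on GRCm38.p6 from 250 bases before to 50 after the start. They lie at chr6:67037358-67037657 (minus strand) for Gadd45a, chr10:80929841-80930140 (plus) for Gadd45b, chr13:51846425-51846724 (plus) for Gadd45g and chr8:70632407-70632706 (minus) for Gdf15. Capitals mark matches to the octamer ATGCAAAT, the C/EBP-ATF element TGATGNAA, the cAMP response element TGACGTCA and the p53 consensus decamer, on either strand.
Gadd45a promoter: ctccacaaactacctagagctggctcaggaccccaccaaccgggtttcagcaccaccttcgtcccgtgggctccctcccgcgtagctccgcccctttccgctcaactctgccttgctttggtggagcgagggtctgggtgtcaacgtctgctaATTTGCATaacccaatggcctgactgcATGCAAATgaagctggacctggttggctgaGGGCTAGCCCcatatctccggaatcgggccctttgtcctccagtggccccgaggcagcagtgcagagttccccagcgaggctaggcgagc
Gadd45b promoter: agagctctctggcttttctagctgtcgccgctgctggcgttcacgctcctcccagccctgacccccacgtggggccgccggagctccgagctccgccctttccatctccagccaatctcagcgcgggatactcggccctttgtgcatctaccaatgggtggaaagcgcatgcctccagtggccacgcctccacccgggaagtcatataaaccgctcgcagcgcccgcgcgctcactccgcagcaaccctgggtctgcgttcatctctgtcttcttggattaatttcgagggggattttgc
Gadd45g promoter: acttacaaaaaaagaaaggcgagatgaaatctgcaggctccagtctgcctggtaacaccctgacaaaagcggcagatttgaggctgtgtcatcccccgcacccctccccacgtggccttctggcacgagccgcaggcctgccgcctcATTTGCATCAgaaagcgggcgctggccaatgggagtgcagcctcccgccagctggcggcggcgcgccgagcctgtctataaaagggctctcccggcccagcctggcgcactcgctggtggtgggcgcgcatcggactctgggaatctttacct
Gdf15 promoter: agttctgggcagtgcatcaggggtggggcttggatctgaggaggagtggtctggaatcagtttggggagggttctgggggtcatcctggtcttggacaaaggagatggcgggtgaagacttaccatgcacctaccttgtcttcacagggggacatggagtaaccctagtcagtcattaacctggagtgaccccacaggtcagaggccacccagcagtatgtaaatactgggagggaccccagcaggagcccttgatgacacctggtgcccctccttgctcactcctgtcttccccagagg

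The Gadd45a window held the octamer at 2 places, with first bases 97 and 70 before the start, and a CCAAT match at 86 before the start between them. It also held 1 p53 decamer, which is a half-site, 40 bases before the start. The Gadd45g window held 1 octamer at 103 before the start, and the C/EBP-ATF match at 101 overlaps it on the same stretch. The Gadd45b window held no octamer and 2 CCAAT matches, and the Gdf15 window held none of the marked motifs. Of 32851 windows of this length, 1.74% held the octamer and 0.107% held it 2 or more times, 3.97% held TGATGNAA, 1.79% TGACGTCA, 37.4% CCAAT and 8.36% the decamer. The letters ACGTG, a form of the HIF core, were present in 19.6% of windows. They occurred in the Gadd45b and Gadd45g windows as CACGTG and in neither the Gadd45a nor this Gdf15 window. RefSeq gives Gdf15 a second start, whose window held CACGTG too. The Trp53 window also held CACGTG, while those of Mdm2, Ccng1 and Phlda3 held no ACGTG. The form GCGTG was not counted in any window, and the Mdm2 and Ccng1 windows do hold it. A window without ACGTG is therefore not shown to lack a HIF core. Of the 9 genes 8 had a window. The windows of Trp53, Mdm2 and Ccng1 held 1 decamer each, and that of Phlda3 held none. Sequence outside the windows was not searched. A match is only a run of letters, and no binding was measured here. Whether any motif bears on the levels of these genes was not tested.

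Gdf15 encodes a secreted cytokine of the TGF-beta superfamily that is induced by cell stress. It was at 17.6, 14.4 and 15.5 CPM in KO c11, c15 and c22, against 2.34 CPM in mock. The knockout libraries lay close together, all far above mock, whose 29 reads allow 1.57 to 3.36 CPM (exact Poisson interval). The fitted log2 fold change was 2.75 (SE 0.55), a 6.74-fold difference with 3 of 3 knockout libraries higher, and the edgeR adjusted p was 0.384 (DESeq2 0.0011). Gdf15 varied 1.22-fold among the knockout libraries, against 2.04-fold for Gadd45a, which was lowest in c15. The GDF15 receptor gene Gfral had 0 counts in every library, and its partner Ret was at 0 to 0.15 CPM in the knockout libraries and 0.32 CPM in mock.

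Trp53 itself was at 172, 161 and 216 CPM in KO c11, c15 and c22, against 191 CPM in mock. The mock value lay between the knockout values, with a fitted log2 fold change of -0.06 (SE 0.32), or 0.02 without c15. The pseudogene Trp53-ps was at 2.91, 1.29 and 8.46 CPM, against 2.42 CPM in mock, and reads of near-identical copies may be shared. Wrap53, the divergent neighbour that starts beside Trp53, was at 11.2, 20.1 and 12.4 CPM, against 22.4 CPM in mock.

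Mdm2, the ubiquitin ligase gene in the p53 feedback loop, was at 55.0, 73.9 and 54.5 CPM in KO c11, c15 and c22, against 50.6 CPM in mock. All 3 knockout libraries lay above mock, c11 and c22 only slightly (log2 fold change 0.27, SE 0.35). Ccng1, the cyclin G1 gene, was at 49.7, 54.7 and 64.2 CPM, against 43.4 CPM in mock (log2 fold change 0.37, SE 0.34). Here too every knockout library was above mock, by less than 1 log2 unit. Zmat3, which encodes an RNA-binding zinc finger protein, was at 43.0, 77.3 and 27.5 CPM, against 47.8 CPM in mock. It differed 2.81-fold among the knockout libraries, on both sides of mock, and its log2 fold change of 0.04 (SE 0.59) became -0.45 without c15. Phlda3, whose product restrains AKT at the membrane, was at 27.6, 32.97 and 38.9 CPM, against 44.4 CPM in mock. It was the 1 gene of the 9 that lay below mock in every knockout library (log2 fold change -0.42, SE 0.35). Each of these 4 targets had an edgeR adjusted p of 1.00.

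**Figure D3:**
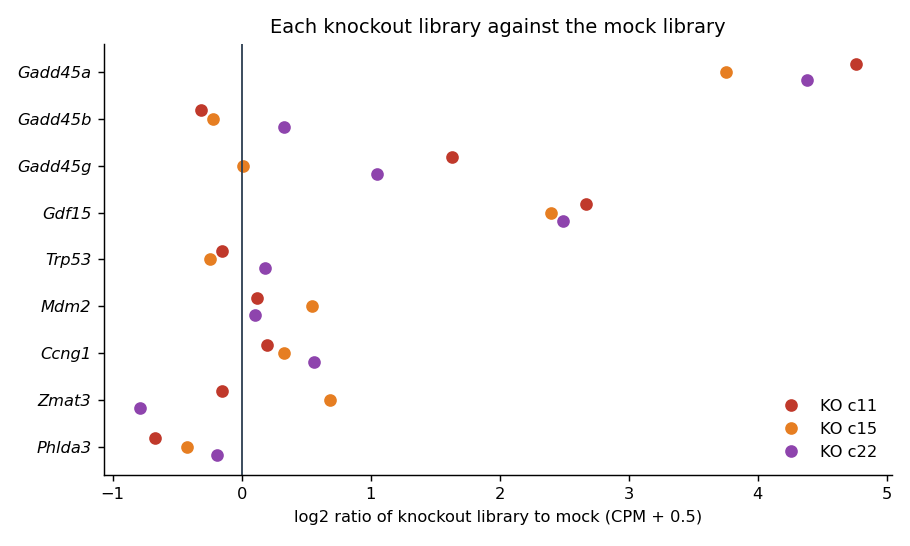
Log2 ratio of each knockout library to mock (x axis, 0.5 CPM added to both) for the 9 genes (rows), with 1 point per knockout library. The 3 ratios of a gene share the mock library. Gadd45a lies between 3.75 and 4.77 and Gdf15 between 2.40 and 2.67, and both are themselves known as p53 targets. Trp53, Mdm2, Ccng1, Zmat3 and Phlda3 lie between -0.79 and 0.69.

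In counts, 0 of the 9 genes passed edgeR over all genes, 2 had an unadjusted p under 0.05 (Gadd45a and Gdf15, both higher), 2 passed DESeq2 and 0 passed limma-voom. Over all 15706 genes tested, edgeR called 0% higher and 0.00637% lower, and DESeq2 called 0.306% higher and 0.42% lower. At an unadjusted p under 0.05, edgeR had 1.12% higher and 2.56% lower. All 3 knockout libraries were above mock for 5 of the 9 genes and below mock for 1, against 21.4% above and 22.2% below over all genes tested. The median log2 fold change was 0.27 over the 9 genes (0.11 without c15) and 0.05 over all genes tested. The comparison was the one by which the genes had been picked, so nothing is read from these counts.

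The order of levels per length put Trp53 first in every library, at 121, 116 and 142 TPM in c11, c15 and c22, against 132 TPM in mock. In mock Gadd45a was last of the 9, at 2.81 TPM, while in the knockout libraries it ranked 2 or 3, at 73.4 ± 24.8 TPM (SD, n = 3). Over the knockout libraries the order by mean TPM was Trp53, Gadd45a, Phlda3, Gadd45g, Ccng1, Mdm2, Gadd45b, Gdf15 and Zmat3. Trp53 lay clear of Gadd45a, and Gdf15, at 24.03 ± 2.69 TPM, lay clear of Zmat3, at 12.3 ± 6.83 TPM. The ranges of all neighbours between Gadd45a and Gdf15 overlapped.

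The other p53 targets of a textbook list, which leaves out Gadd45a and the rest of the 9 genes, showed no common direction. Of 32 genes, 30 were tested, with 0 called by edgeR in either direction, 2 at an unadjusted p under 0.05 (both higher, against 1.12% higher over all genes) and 1 higher by DESeq2 (0.306% over all genes). In all knockout libraries 9 of the 30 were above mock (21.4% over all genes) and 7 below (22.2% over all genes), with a median log2 fold change of 0.21 (0.37 without c22). The CDK inhibitor gene Cdkn1a, the target most often read as p53 activity, was at 55.8, 39.4 and 78.2 CPM in KO c11, c15 and c22, against 84.4 CPM in mock (log2 fold change -0.55, SE 0.43). Plk2, a polo-like kinase gene, was the 1 gene that DESeq2 called. It was at 47.4, 28.8 and 14.99 CPM, against 4.11 CPM in mock (log2 fold change 2.88, SE 0.83, edgeR adjusted p = 0.815). Trp53inp1, an autophagy and apoptosis gene, was at 11.7, 4.41 and 7.53 CPM, against 2.66 CPM in mock. Rprm, a G2 arrest gene, had reads in c11 (4.28 CPM), 0 counts in c15 and c22 and 0.16 CPM in mock, so its log2 fold change of 3.07 (SE 3.23) rests on c11. On the lower side Sesn1, a sestrin gene, was at 84.5, 58.3 and 103 CPM, against 149 CPM in mock. The caspase-2 scaffold gene Pidd1 was at 7.80, 13.9 and 11.3 CPM, against 17.6 CPM in mock. The glutaminase gene Gls2 was at 7.11, 58.1 and 3.80 CPM, against 50.9 CPM in mock. Its fitted log2 fold change of -1.14 became -3.22 without c15.

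Regulators of p53 lay on both sides of mock, with 4 of 19 tested genes above in every knockout library (21.4% over all genes) and 1 below (22.2% over all genes). None of the 19 passed edgeR or DESeq2 or had an unadjusted p under 0.05. The median log2 fold change was 0.02, with -0.08 without c15 and 0.11 without c22. Mdm4, the partner of Mdm2, was at 94.0, 93.9 and 112 CPM in KO c11, c15 and c22, against 111 CPM in mock. Rchy1 and Cop1, both ubiquitin ligase genes, and the checkpoint kinase gene Chek2 had the highest log2 fold changes, 0.62 (SE 0.42), 0.40 (SE 0.40) and 0.44 (SE 0.40). The deubiquitinase gene Usp7, the checkpoint kinase gene Chek1 and the nuclear body gene Pml had the lowest, -0.32 (SE 0.28), -0.27 (SE 0.43) and -0.27 (SE 0.41). Cdkn2a, the Ink4a/Arf locus, was at 1.53, 2.58 and 1.24 CPM, against 1.53 CPM in mock. These levels rest on 20, 34 and 16 reads, against 19 in mock. The tumour cells have an Ink4a/Arf-deficient background, and the source of the reads was not tested.

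Partners of the GADD45 proteins also lay on both sides of mock. None of 14 genes passed either test or had an unadjusted p under 0.05. The median log2 fold change was -0.14, and 5 of 14 were below mock in every knockout library (22.2% over all genes) and 1 above (21.4%). The kinase genes Map2k7, Map3k4 and Mapk8 had the highest log2 fold changes, 0.23 (SE 0.36), 0.22 (SE 0.45) and 0.18 (SE 0.35), and that of Map3k4 was -0.09 without c22. The replication clamp gene Pcna was at 245, 269 and 260 CPM in KO c11, c15 and c22, against 369 CPM in mock, and the mitotic kinase gene Cdk1 at 134, 154 and 149 CPM, against 191 CPM in mock. With Cdkn1a these were the lowest of the list.

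Most genes of the integrated stress response were higher in every knockout library. Of 14 genes, 12 were above mock in every knockout library (21.4% over all genes) and 0 below (22.2%), with a median log2 fold change of 1.20. edgeR called 0 over all genes, 10 had an unadjusted p under 0.05, all higher (1.12% over all genes), and DESeq2 called 5 higher (0.306% over all genes). The list was chosen with the stress genes of these data known. Ppp1r15a, once named GADD34, encodes the subunit that directs the eIF2alpha phosphatase, and was at 113, 104 and 97.2 CPM in KO c11, c15 and c22, against 18.5 CPM in mock. Ddit3, once named GADD153, encodes CHOP, and was at 179, 206 and 75.2 CPM, against 21.3 CPM in mock. Atf3, a stress transcription factor gene, was at 36.6, 33.7 and 26.3 CPM, against 6.45 CPM in mock. DESeq2 called these 3 genes, with adjusted p of 4.56e-08 for Ppp1r15a, 0.00123 for Ddit3 and 9.64e-04 for Atf3, while edgeR gave 0.248, 0.592 and 0.38. The eIF2alpha kinase genes Eif2ak2, Eif2ak1 and Eif2ak4 were the lowest of the list, with log2 fold changes of 0.48 (SE 0.45), 0.13 (SE 0.32) and -0.06 (SE 0.34). Sesn2 belongs to this list and to the p53 targets, and was at 59.3, 64.0 and 61.5 CPM, against 28.3 CPM in mock.

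**Figure D4:**
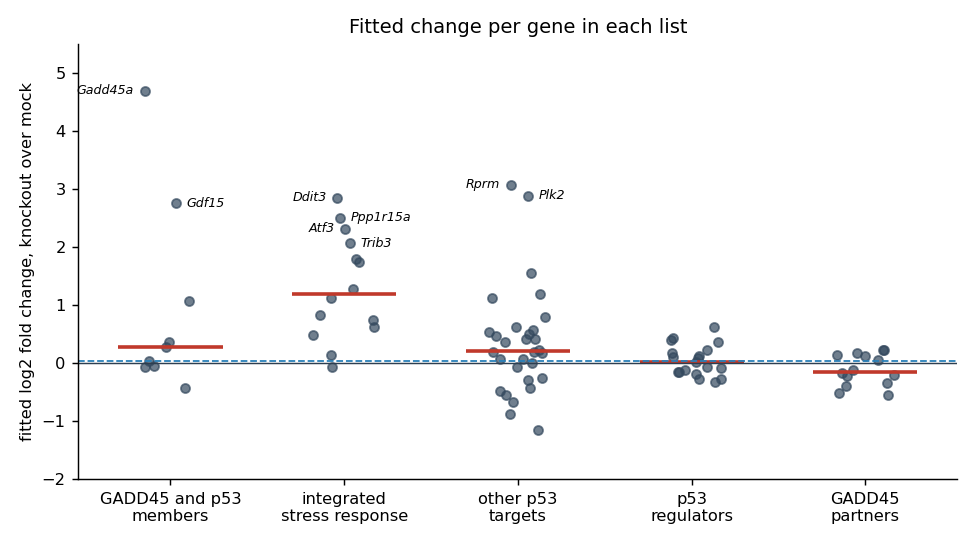
Fitted log2 fold change, knockout over mock (y axis), of each tested gene (points) in the 9 genes and 4 lists (x axis, spread sideways for sight alone). Red bars are list medians, the dashed line is the median of all genes tested (0.05), and genes beyond 2 are named. The stress response median is 1.20, and those of the other p53 targets, the p53 regulators and the GADD45 partners are 0.21, 0.02 and -0.14.

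The pattern over the 4 libraries most like that of Gadd45a belonged to Avil. Likeness was the Euclidean distance between mean-centred log2(CPM + 0.5) profiles, over 10207 other genes with a mean of at least 5 CPM, leaving out predicted genes, Rik clones and pseudogenes. Avil, the advillin gene, had a distance of 0.48 and was at 85.6, 29.1 and 70.3 CPM in KO c11, c15 and c22, against 2.34 CPM in mock. Then came Sh2d6 (0.94), Sspo (1.12), Emx2 (1.36) and Slc40a1 (1.36). Each of the 5 was low in mock and lowest among the knockout libraries in c15. That follows largely from choosing them by likeness to Gadd45a. Among the 9 genes and the lists above, the nearest were Gdf15 (distance 1.64, rank 14) and Ppp1r15a (distance 1.72, rank 16), while Gadd45g came at rank 266 and Trp53 at rank 5435. Each distance rests on 4 libraries, 1 of them mock. Profiles were centred but not scaled, so ranks largely restate the differences between knockout and mock and are no separate evidence.

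**Figure D5:**
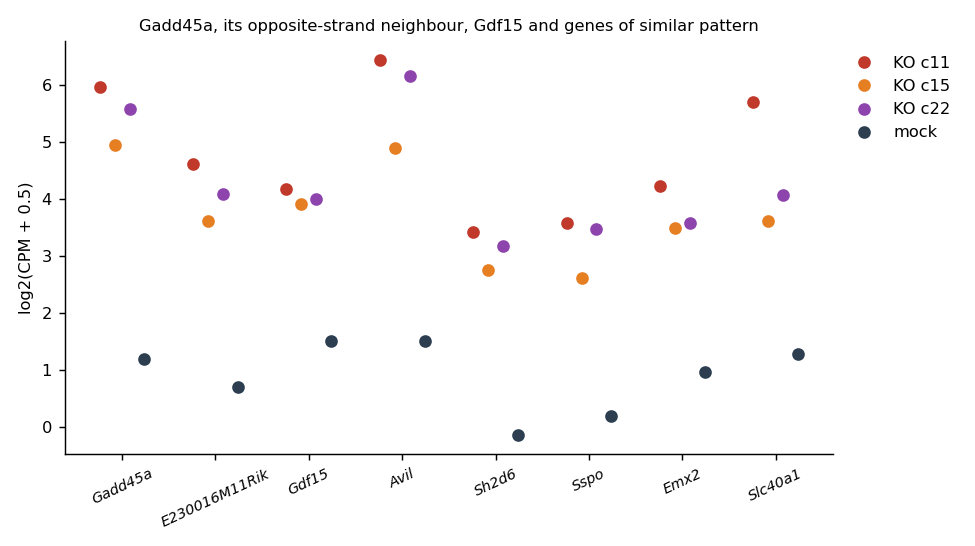
Level as log2(CPM + 0.5) (y axis) of Gadd45a, the opposite-strand gene E230016M11Rik, Gdf15 and the 5 genes nearest in pattern to Gadd45a (x axis), with 1 point per library. In each gene mock is the lowest point, and in each c15 is the lowest knockout point, which for Gadd45a is 30.2 CPM. The 5 genes were picked for likeness to Gadd45a, so for them this follows largely from the choice.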

How the data were processed

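Poly(A) RNA was sequenced from 3 HIF-1alpha KO tumours and 1 mock tumour using a kit that keeps strand, as the labels' protocols say. The authors deposited raw counts of reads per gene, 1 column per library. The submitters' processing notes name HISAT2 2.1.0, featureCounts 1.6.3 and the build GRCm38, with no settings. Columns c11, c15 and c22 were used as 3 libraries of the knockout group.

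Of 55487 IDs, 55141 were in GENCODE M21. The 15706 genes kept by filterByExpr (99.9% of counts) were scaled by TMM and tested by the robust quasi-likelihood test of edgeR 4.0.16 (R 4.3.3), 2-sided, with Benjamini-Hochberg adjustment over all genes and a threshold of 0.05. The mock library was assumed to vary like the knockout libraries, leaving 2 residual degrees of freedom, and the biological coefficient of variation was 0.442. Alternatives used DESeq2 1.42.0 and limma 3.58.1. Every pair of libraries differed (chi-square per gene at least 44.3), so none was deposited in duplicate.

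The genes, lists and naming rule were chosen with earlier results of these data known. The rule named, per list, the 3 highest and 3 lowest log2 fold changes at a mean of at least 1 CPM, with Hif1a, Cdkn1a, Cdkn2a, Mdm4, Ppp1r15a and Ddit3, and the 5 genes most like Gadd45a. Runx2, Col1a1, Bglap, Ly6g, E230016M11Rik, Wrap53, Trp53-ps, Gfral, Ret and Sesn2 were named outside it. Intervals cover counting error only.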

Additional observations from a re-analysis of the deposited data

How the results depend on the processing

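edgeR's quasi-likelihood test called 1 gene lower over all genes. That count was 0 with limma-voom, with the quasi-likelihood method of earlier edgeR versions (added after the data were seen), and without any 1 knockout library (0 to 0 over c11, c15 and c22 left out in turn), 4 with no filter and 66 with DESeq2. DESeq2 also called 48 genes higher and 2 of the 9 genes described here, Gadd45a and Gdf15. In other edgeR and limma fits neither passed. Adjusted p for Gadd45a in edgeR and limma ranged up to 0.785, and leaving out c15 gave the lowest when a library was dropped, 0.14. Log2 fold changes without 1 knockout library ran from 4.44 to 4.92 for Gadd45a, 2.67 to 2.81 for Gdf15 and 0.65 to 1.40 for Gadd45g. Those near 0 changed sign for Gadd45b (-0.27 to 0.088), Trp53 (-0.20 to 0.024), Zmat3 (-0.45 to 0.33), Cdkn2a (-0.15 to 0.42), Eif2ak4 (-0.14 to 0.024) and Map3k4 (-0.094 to 0.40). With limma-voom Zmat3 was at -0.085, and Rprm, at 3.07 (SE 3.23) in edgeR, was at -0.12. The cause of these sign changes was not tested. In 92 of 99 alternative values for the 9 genes, direction and side of the threshold were as reported. With 0.1 or 1 CPM added, 4 of the 5 genes most like Gadd45a were the same. The table has no length column, so levels per length were not recomputed with one. No paired analysis was possible because there was 1 mock library. Depth limits the mock values of Gadd45a (22 reads) and Gdf15 (29 reads) most among the 9 genes.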
